A study of Mus musculus with 18 samples.

Results

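Cholesterol synthesis and the genes that SREBP2 controls were examined in mouse liver after myocardial infarction (MI). The set was a list of 29 genes chosen by symbol: 20 enzymes that lead from acetyl-CoA to cholesterol or to its isoprenoid side product, 4 genes of SREBP2 and its control, and 5 genes of cholesterol transport, storage and uptake. All 29 were found by exact symbol among the 50600 genes of the 1 day file and the 17127 genes of the 12 hour file. All 29 also passed the filter on low counts, which left 14266 genes at 1 day and 12548 at 12 hours. Of the 29, 27 passed the test in at least 1 of 6 comparisons, and Npc1 and Scarb1 passed in none.

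Cells make cholesterol from acetyl-CoA through mevalonate, farnesyl diphosphate, squalene and lanosterol, and the liver is a main site of this synthesis. SREBP2 is a membrane-bound transcription factor that switches on nearly every gene of the route. When sterols are plentiful, the INSIG proteins hold SCAP, the escort of SREBP2, in the endoplasmic reticulum, so SREBP2 is not cleaved and its targets are transcribed less.

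RNA from whole livers of 12-week-old C57BL/6 mice was sequenced, in 18 livers and 6 groups of 3. At 1 day after the operation the groups were littermate controls (LC), which carry loxP-flanked mineralocorticoid receptor (MR) alleles and which the labels call wild type, and hepatocyte MR knockouts (HMRKO), which carry the same alleles with Cre driven by the albumin promoter, each after MI or sham operation. At 12 hours the groups were C57 mice after MI or sham operation. MI was made by tying off the left anterior descending coronary artery of male mice, and sham mice had the operation without the ligation. The albumin promoter drives Cre in hepatocytes, so other liver cells keep MR, and in whole-liver RNA fewer cells of a type and less RNA per cell cannot be told apart. Neither feeding nor the time of day at collection is given in the sources used here.

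Promoter windows are shown for 4 members that stood out below: Hmgcs1, the first committed step before mevalonate, Nsdhl, Insig1 and Insig2. In HMRKO + MI against LC + MI livers, Nsdhl was the enzyme that fell most, and Insig1 and Insig2 moved in opposite directions. The windows run from 250 bases before to 50 bases after a RefSeq start site on GRCm38.p6, the build of the promoter table and not that of the counts. Capitals mark the core of a sterol regulatory element, TCACNCCA, or the NF-Y box, CCAAT, searched on both strands, and ATTGG is the box on the opposite strand. Hmgcs1 lies at chr13:119690101-119690400 on the plus strand, Nsdhl at chrX:72918271-72918570 on the plus strand, Insig1 at chr5:28071162-28071461 on the plus strand, and the Insig2 window, 1 of 3 in the table, at chr1:121332540-121332839 on the minus strand. The Insig2 window shown was picked because it held the most matches, and the other Insig2 windows held neither motif.
Hmgcs1: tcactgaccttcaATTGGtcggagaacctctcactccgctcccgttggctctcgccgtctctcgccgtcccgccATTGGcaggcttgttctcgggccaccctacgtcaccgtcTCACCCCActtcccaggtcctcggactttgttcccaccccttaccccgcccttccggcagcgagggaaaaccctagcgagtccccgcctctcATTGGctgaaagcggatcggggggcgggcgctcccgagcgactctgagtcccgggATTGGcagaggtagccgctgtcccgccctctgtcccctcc
Nsdhl: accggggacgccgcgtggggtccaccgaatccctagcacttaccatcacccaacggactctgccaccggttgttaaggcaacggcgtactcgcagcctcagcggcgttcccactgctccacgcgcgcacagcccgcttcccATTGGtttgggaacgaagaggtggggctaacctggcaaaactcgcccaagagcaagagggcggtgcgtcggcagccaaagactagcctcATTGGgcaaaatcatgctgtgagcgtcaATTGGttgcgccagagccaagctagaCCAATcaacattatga
Insig1: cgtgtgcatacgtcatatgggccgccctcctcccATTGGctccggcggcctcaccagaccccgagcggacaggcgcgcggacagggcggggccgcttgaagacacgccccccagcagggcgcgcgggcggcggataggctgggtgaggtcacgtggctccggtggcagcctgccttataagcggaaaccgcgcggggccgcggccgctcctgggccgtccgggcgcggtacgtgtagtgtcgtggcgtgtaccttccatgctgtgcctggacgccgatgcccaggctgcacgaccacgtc
Insig2: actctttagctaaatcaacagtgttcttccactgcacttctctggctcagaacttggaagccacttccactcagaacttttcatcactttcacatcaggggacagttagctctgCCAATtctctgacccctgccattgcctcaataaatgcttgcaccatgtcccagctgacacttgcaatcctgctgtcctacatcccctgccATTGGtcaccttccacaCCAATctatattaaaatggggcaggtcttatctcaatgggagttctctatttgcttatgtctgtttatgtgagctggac
The table held 22 of the 29 members. TCACNCCA occurred in 3 of the 22 (Hmgcs1, Msmo1 and Srebf2), against 4.97% of the 27025 genes in the table. The NF-Y box occurred in 19 of the 22, against 41.1% of all genes, and Acat2, Aacs and Scap lacked it in this window. Of the 14 matched members that fell in HMRKO + MI against LC + MI livers, 13 held the box, as did 6 of the 8 other matched members. The members with no entry were Fdps, Fdft1, Sqle, Stard4, Npc1, Soat2 and Scarb1. These counts describe letters in a window and were not tested.

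Total counts per liver were 19098704 to 28945526 at 1 day. At 12 hours they were 1361564 to 2255837 in sham livers but 16745688 to 19190438 in MI livers, so depth and operation cannot be told apart there. Nr3c2, which encodes MR, stood at 4.71 to 6.70 CPM (counts scaled to a common library size by the TMM method) in LC + sham, 1.90 to 3.56 in LC + MI, 2.55 to 3.76 in HMRKO + sham and 0.895 to 1.10 in HMRKO + MI livers. Each HMRKO group lay below the LC group of the same operation, and the LC + MI and HMRKO + sham ranges overlapped. In LC + MI replicate 1, mitochondrial genes took 18.9% of the counts, against 7.53% to 15.6% in the other 1 day livers. That liver had the highest level of all 12 for 12 members, and HMRKO + MI replicate 1 had the lowest for 19. At 12 hours, C57 + MI replicate 2 had the highest level of its group for 25 members.

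The summed level of the 20 enzymes was lowest in HMRKO + MI livers. It was 1755 to 2507 CPM in LC + sham, 2115 to 3182 in LC + MI, 1618 to 2262 in HMRKO + sham and 710.1 to 1293 in HMRKO + MI livers. The HMRKO + MI range did not overlap any of the other 3. By group mean, most single enzymes were also lowest in HMRKO + MI livers, as the map of all members by liver shows. Several of their ranges, such as that of Hmgcs1, overlapped those of HMRKO + sham livers. The enzymes Hsd17b7 and Ggps1 had their highest mean in HMRKO + MI livers, as did Insig2 and Soat2 outside the enzymes.

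**Figure D1:**
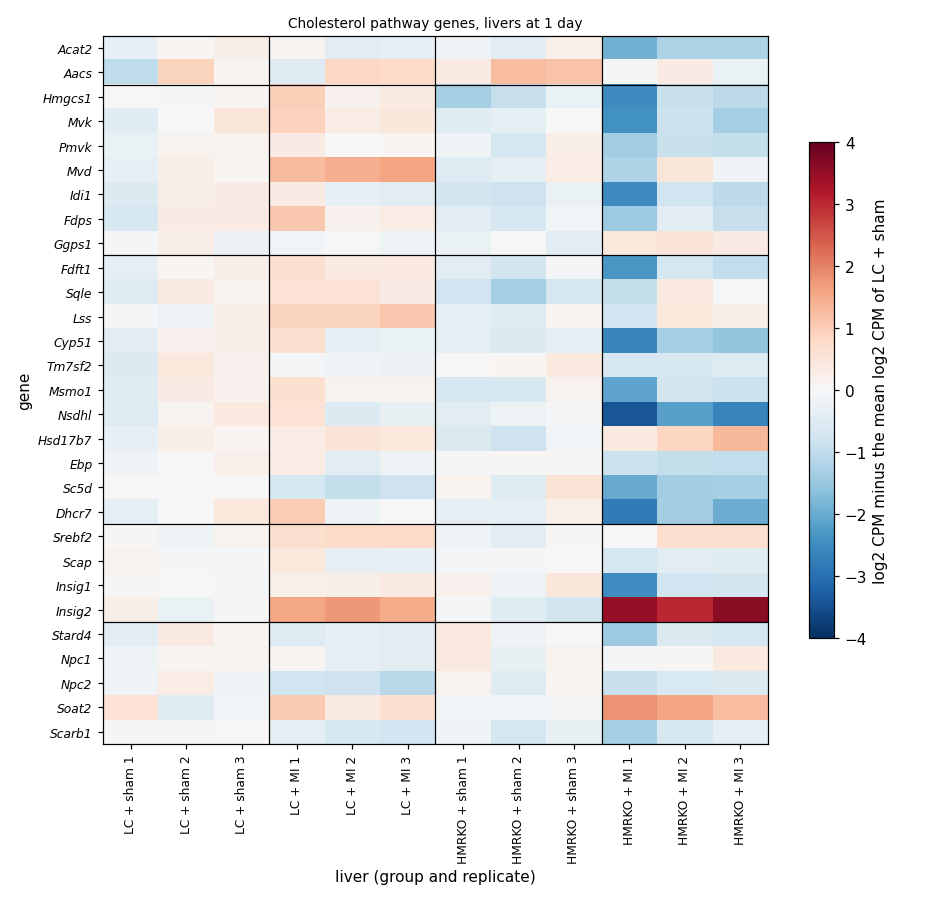
Level of each of the 29 members (rows, grouped by role) in each of the 12 livers at 1 day (columns), as log2 CPM minus the mean log2 CPM of the LC + sham livers, with red for higher and blue for lower. The HMRKO + MI columns are blue for most enzymes, most so in replicate 1, while Insig2 is red in all 6 MI livers.

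The first question was what MI did to these genes in livers with intact MR. In LC livers few members moved: 3 rose (Insig2, Mvd and Srebf2) and 1 fell (Npc2). The remaining 25 did not pass, and the median log2 fold change over the 29 was 0.27, against 0.01 over all genes tested. That median rested on single livers, at 0.03 when the first LC + sham liver and 0.02 when the first LC + MI liver was left out. In percent, 10.3% of the members rose, against 2.68% of all genes tested, and 3.45% fell, against 2.33%. With a log2 fold change past 1 as well, 2 members were higher (1.44% of all genes) and 0 lower (1.04% of all genes). Other values moved between the same groups, and their part was not tested. The mitochondrial share of counts was 7.53% to 9.65% in LC + sham and 10.9% to 18.9% in LC + MI livers. The summed macrophage markers went from 179 to 240.1 CPM in sham to 127 to 131 in MI livers without overlap, with a negative log2 fold change for all 8, of which 3 passed. Of 8 hepatocyte markers 1 rose and 1 fell, and 0 passed on the other 6 marker lists.

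Insig2 (ENSMUSG00000003721), one of the pair of INSIG proteins and the one whose main liver transcript insulin represses, stood at 55.6, 39.2 and 49.4 CPM in LC + sham livers and at 138, 157 and 133 in LC + MI livers. Every MI liver lay above every sham liver, 2.96-fold on average (edgeR log2 fold change 1.57 ± 0.21 (SE), adjusted p = 0.00233). Insig1 was also higher in every LC + MI liver, at 239 to 266 CPM against 200 to 214 in LC + sham livers, but did not pass. Mvd (ENSMUSG00000006517), which makes isopentenyl diphosphate, went from 20.9, 30.9 and 27.9 to 62.3, 72.4 and 78.4 CPM without overlap (edgeR log2 fold change 1.42 ± 0.34 (SE), adjusted p = 0.0318). Srebf2 (ENSMUSG00000022463), the gene of SREBP2 itself, went from 35.9, 30.5 and 37.9 to 54.4, 57.5 and 58.7 CPM, again without overlap (edgeR log2 fold change 0.71 ± 0.18 (SE), adjusted p = 0.0398).

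Npc2 (ENSMUSG00000021242), which carries cholesterol out of lysosomes, went from 38.3, 51.8 and 38.9 to 24.4, 24.2 and 19.6 CPM and was the member that fell (edgeR log2 fold change −0.92 ± 0.19 (SE), adjusted p = 0.0187). Lss, lanosterol synthase, was at 49.96, 45.6 and 63.5 CPM in sham and 98.2, 97.6 and 110.5 in MI livers, which did not overlap, and it missed the threshold narrowly (edgeR log2 fold change 0.95 ± 0.26 (SE), adjusted p = 0.051). Sc5d, a sterol desaturase, was at 258, 256 and 253 and 158, 132 and 145 CPM, also without overlap and without passing (edgeR log2 fold change −0.82 ± 0.24 (SE), adjusted p = 0.0715). The count of rises was 1 without LC + sham replicate 2 or 3 or without LC + MI replicate 2 or 3. Rises over all genes tested also dropped there, from 382 to 139, 145, 121 and 119 in that order. Insig2 passed in each of those fits. Npc2 did not without LC + sham replicate 2, LC + MI replicate 2 or LC + MI replicate 3. Mvd was lost without any 1 LC + sham liver or LC + MI replicate 2 or 3, and Srebf2 without any of these or HMRKO + sham replicate 1 or HMRKO + MI replicate 2.

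The next question was whether loss of hepatocyte MR changed these genes after MI. Transcripts of cholesterol synthesis genes were mostly lower in HMRKO + MI than in LC + MI livers: 16 of the 29 members fell and 2 rose (Insig2 and Soat2). By role, 1 of 2 genes of acetyl-CoA supply, 6 of 7 of the mevalonate pathway, 8 of 11 of the squalene and sterol steps, 1 of 4 of SREBP2 control and 0 of 5 of transport and storage fell. The falls made up 55.2% of the members, against 16.2% of all genes tested, and the rises 6.9%, against 14.6%. With a log2 fold change past 1 as well, 13 members were lower (44.8%, against 7.77% of all genes) and 1 higher (3.45%, against 4.58%). The median member changed by −0.84 on the log2 scale, against −0.01 for all genes.

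Among the early steps, Hmgcs1 (ENSMUSG00000093930), HMG-CoA synthase, stood at 525, 302 and 347 CPM in LC + MI and 46.9, 147 and 130.3 in HMRKO + MI livers. The groups did not overlap (edgeR log2 fold change −1.86 ± 0.38 (SE), adjusted p = 0.00405). Mvk (ENSMUSG00000041939), mevalonate kinase, went from 46.1, 29.995 and 33.6 to 4.59, 13.3 and 9.39 CPM (edgeR log2 fold change −1.99 ± 0.33 (SE), adjusted p = 0.00184), and Pmvk (ENSMUSG00000027952), which adds the next phosphate, from 32.2, 25.1 and 27.02 to 9.79, 13.8 and 13.04 (edgeR log2 fold change −1.20 ± 0.23 (SE), adjusted p = 0.00294). Both were lower in every HMRKO + MI liver. Acat2 (ENSMUSG00000023832), the cytosolic thiolase that joins acetyl-CoA units, went from 62.4, 43.5 and 46.3 to 15.5, 24.5 and 24.6 CPM, lower in all 3 HMRKO livers (edgeR log2 fold change −1.23 ± 0.23 (SE), adjusted p = 0.00279). Mvd, Fdps (farnesyl diphosphate synthase) and Idi1 (isopentenyl diphosphate isomerase) were also lower than in LC + MI livers, by 1.56, 1.44 and 1.17 on the log2 scale. Mvd averaged 23.9 CPM in HMRKO + MI and 23.5 in HMRKO + sham livers, so it was not below its own sham level. Its high group was LC + MI, at a mean of 71.0 CPM. Ggps1, which takes farnesyl diphosphate to geranylgeranyl diphosphate, and Aacs, which activates acetoacetate, did not pass, at 0.51 and −0.46.

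Among the sterol steps, Nsdhl (ENSMUSG00000031349), which acts in removing methyl groups from the sterol ring, fell most. It stood at 151, 70.002 and 83.2 CPM in LC + MI and 9.62, 22.8 and 15.9 in HMRKO + MI livers, 6.27-fold lower (edgeR log2 fold change −2.65 ± 0.35 (SE), adjusted p = 0.000707). Dhcr7 (ENSMUSG00000058454), the reductase that ends one branch of the route, went from 164, 70.2 and 80.8 to 11.6, 31.4 and 20.7 CPM (edgeR log2 fold change −2.30 ± 0.38 (SE), adjusted p = 0.00181). Cyp51 (ENSMUSG00000001467), lanosterol demethylase, went from 239, 118 and 125 to 24.6, 58.2 and 50.3 CPM (edgeR log2 fold change −1.85 ± 0.33 (SE), adjusted p = 0.00237). None of these 3 overlapped between the groups, and in each the highest value was LC + MI replicate 1 and the lowest HMRKO + MI replicate 1. Smaller falls were those of Ebp (ENSMUSG00000031168), a sterol isomerase, from 362, 219 and 257 to 163, 154 and 151 CPM (edgeR log2 fold change −0.84 ± 0.18 (SE), adjusted p = 0.00502), and of Sc5d (ENSMUSG00000032018), from 158, 132 and 145 to 62.6, 98.6 and 101 CPM (edgeR log2 fold change −0.73 ± 0.24 (SE), adjusted p = 0.0373). Fdft1 (squalene synthase), Msmo1 (methylsterol monooxygenase) and Lss were lower than in LC + MI livers by 1.64, 1.44 and 0.90 on the log2 scale. Lss averaged 54.7 CPM in HMRKO + MI livers, not below its means of 44.2 in HMRKO + sham and 53.0 in LC + sham. The other 3 sterol genes did not pass: Sqle (squalene epoxidase) at −0.60, Tm7sf2 (a sterol reductase) at −0.44 and Hsd17b7 (a ketosterol reductase) at 0.49.

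The INSIG genes parted. Insig1 (ENSMUSG00000045294), itself a target of SREBP2, went from 239, 245 and 266 CPM in LC + MI to 36.7, 119 and 125 in HMRKO + MI livers (edgeR log2 fold change −1.42 ± 0.34 (SE), adjusted p = 0.00865). Insig2 went from 138, 157 and 133 to 533, 386 and 582 CPM, 3.51-fold higher (edgeR log2 fold change 1.81 ± 0.21 (SE), adjusted p = 0.000404). Neither gene overlapped between the groups. Srebf2 was at 54.4, 57.5 and 58.7 and 35.01, 54.6 and 55.1 CPM and did not pass (edgeR log2 fold change −0.24 ± 0.18 (SE), adjusted p = 0.331), nor did Scap at a log2 fold change of −0.49. Soat2 (ENSMUSG00000023045), which esterifies cholesterol for storage and for lipoproteins, rose from 92.97, 58.1 and 69.99 to 155, 135 and 107 CPM without overlap (edgeR log2 fold change 0.84 ± 0.25 (SE), adjusted p = 0.0225). Stard4 (sterol carrier), Npc1 (lysosomal export), Npc2 and Scarb1 (the HDL receptor) lay between −0.42 and 0.33 and did not pass.

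**Figure D2:**
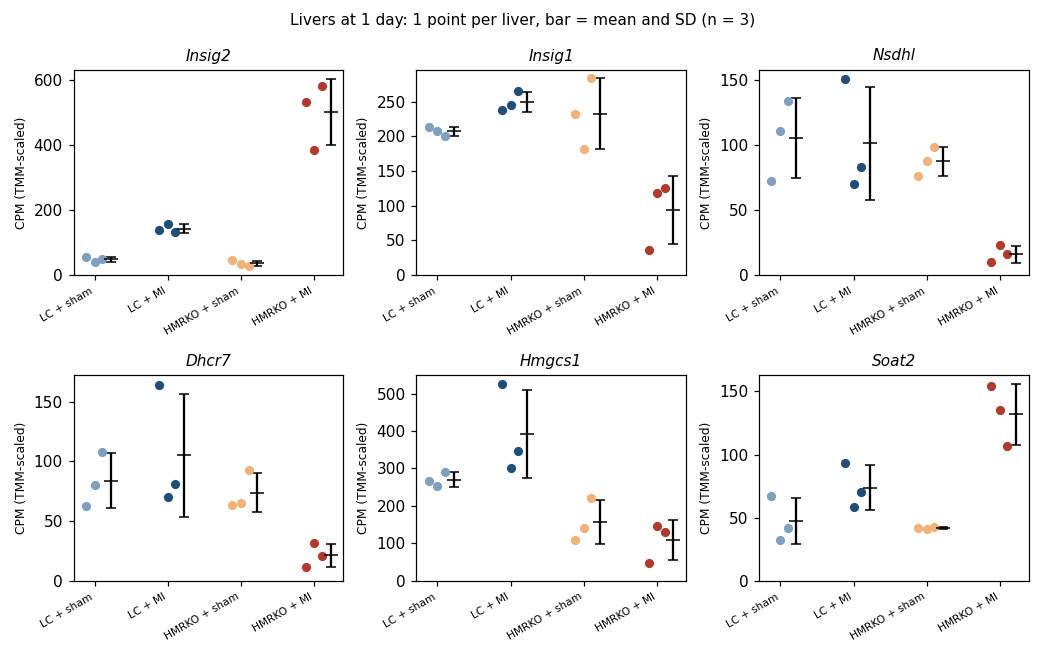
Level in CPM (TMM-scaled, linear axis from 0) of 6 members in the 12 livers at 1 day, with 1 point per liver and the mean and SD of each group of 3 at its right. Nsdhl, Dhcr7 and Insig1 are lowest in the 3 HMRKO + MI livers, and Insig2 and Soat2 are highest there.

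Leaving out each of the 12 livers in turn gave 14 to 17 falls, and the 2 fits with 14 left out replicate 1 of LC + MI or of HMRKO + MI. Falls over all genes tested numbered 1369 to 2429 in the 12 fits. Soat2 did not pass without LC + MI replicate 2 or 3 or HMRKO + MI replicate 1 or 2. Idi1 was lost without replicate 1 of LC + MI or replicate 1 or 3 of HMRKO + MI, and Lss without LC + MI replicate 3. Sc5d was lost without LC + sham replicate 3, LC + MI replicate 1 or 3, or HMRKO + MI replicate 1 or 2. Cell type markers and the mitochondrial share (10.9% to 18.9% in LC + MI, 8.68% to 9.10% in HMRKO + MI) moved between the same groups, and their part in these results was not tested. The summed level of 8 hepatocyte markers was 74012 to 82250 CPM in LC + MI and 92609 to 97728 in HMRKO + MI livers (3 rose and 1 fell), and that of 6 neutrophil markers 6.36 to 14.2 and 24.2 to 27.2 CPM (4 of the 5 tested rose). For the 8 macrophage markers it was 127 to 131 and 77.6 to 152 CPM (0 rose, 1 fell), and for the 6 lymphocyte markers 1.09 to 1.75 and 0.475 to 0.863 CPM (both of those tested fell). Of the other lists, 0 rose and 1 fell among 5 cholangiocyte markers tested, 1 rose and 0 fell among 6 of sinusoidal endothelium, 0 moved among 6 of stellate cells, and 2 rose and 0 fell among 4 of erythroid cells. No marker of any list was at 0 in every liver.

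MI and sham were compared within HMRKO livers next. Here 6 members rose (Insig2, Soat2, Hsd17b7, Sqle, Srebf2 and Ggps1) and 13 fell. The rises made up 20.7% of the members, against 22% of all genes tested, and the falls 44.8%, against 21.7%. The share of rises was thus near that of all genes, and all genes were also called far more often here than in LC livers (2.68% and 2.33%). With a log2 fold change past 1 as well, 3 were higher (10.3%, against 9.06% of all genes) and 7 lower (24.1%, against 11.4%). The HMRKO + MI livers stand in both this comparison and the last. Markers moved here too, and their part was not tested. All 5 neutrophil markers tested rose (summed level 4.19 to 6.74 CPM in sham, 24.2 to 27.2 in MI livers), both lymphocyte markers tested fell (1.84 to 2.63 and 0.475 to 0.863 CPM), and 2 of 8 hepatocyte markers rose and 1 fell (53771 to 68123 and 92609 to 97728 CPM), with no overlap in any of these sums. Of 8 macrophage markers 1 rose and 3 fell (127 to 174 and 77.6 to 152 CPM). Rises and falls numbered 1 and 1 of 5 for cholangiocytes, 2 and 0 of 6 for sinusoidal endothelium, 2 and 0 of 6 for stellate cells and 0 and 2 of 4 for erythroid cells. The mitochondrial share was 10.1% to 15.6% in sham and 8.68% to 9.10% in MI livers.

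Insig2 went from 44.8, 34.3 and 28.6 CPM in HMRKO + sham livers to the HMRKO + MI values above, 13.9-fold higher (edgeR log2 fold change 3.80 ± 0.23 (SE), adjusted p = 9.56e-07). The HMRKO + sham values of Soat2, 41.5, 41.2 and 42.4 CPM, lay below every HMRKO + MI liver (edgeR log2 fold change 1.66 ± 0.25 (SE), adjusted p = 0.000337). Hsd17b7 (ENSMUSG00000026675) went from 14.9, 12.4 and 20.4 to 29.2, 40.3 and 54.9 CPM without overlap (edgeR log2 fold change 1.38 ± 0.24 (SE), adjusted p = 0.000718). Hsd17b7, Sqle and Ggps1 were the 3 enzymes that rose, while 9 fell. For Sqle the groups overlapped, at 28.9, 19.1 and 30.1 and 25.3, 64.01 and 48.7 CPM, and the rise was small (edgeR log2 fold change 0.82 ± 0.30 (SE), adjusted p = 0.0414).

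Nsdhl again fell most, from 76.1, 87.97 and 98.7 CPM (edgeR log2 fold change −2.44 ± 0.35 (SE), adjusted p = 0.00023). Next came Dhcr7, from 63.2, 65.4 and 93.2 (edgeR log2 fold change −1.79 ± 0.38 (SE), adjusted p = 0.0024), and Sc5d, from 284, 177 and 372 (edgeR log2 fold change −1.67 ± 0.25 (SE), adjusted p = 0.000282). All HMRKO + MI livers lay below all HMRKO + sham livers for these 3. Acat2 stood at 51.9, 43.4 and 67.9 CPM in HMRKO + sham (edgeR log2 fold change −1.34 ± 0.23 (SE), adjusted p = 0.000721), Cyp51 at 115, 102 and 113 (edgeR log2 fold change −1.31 ± 0.32 (SE), adjusted p = 0.00617) and Insig1 at 232, 183 and 284 (edgeR log2 fold change −1.32 ± 0.34 (SE), adjusted p = 0.00716). These groups did not overlap with HMRKO + MI either. Mvk, Ebp, Stard4, Pmvk, Tm7sf2, Npc2 and Scap fell by 1.13, 0.95, 0.93, 0.90, 0.78, 0.61 and 0.51 on the log2 scale. Hmgcs1, the entry to the pathway, did not pass, at 108, 142 and 222 CPM in HMRKO + sham livers (edgeR log2 fold change −0.54 ± 0.37 (SE), adjusted p = 0.246). Its HMRKO + sham values lay below all 3 LC + sham values, 265, 253 and 292 CPM, a difference that did not pass (edgeR log2 fold change −0.78 ± 0.37 (SE), adjusted p = 0.849). Mvk did not pass without HMRKO + sham replicate 3, Ggps1 without that liver or HMRKO + MI replicate 2, and Npc2 without HMRKO + sham replicate 1 or 3 or HMRKO + MI replicate 1. Scap was lost without LC + sham replicate 3 or any 1 of the 6 HMRKO livers, and Sqle without LC + sham replicate 3, LC + MI replicate 2 or 3, or any HMRKO liver other than HMRKO + MI replicate 1. The rises numbered 4 to 7 and the falls 10 to 14 when each liver was left out in turn. Over all genes tested they numbered 2543 to 3362 and 2568 to 3289.

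**Figure D3:**
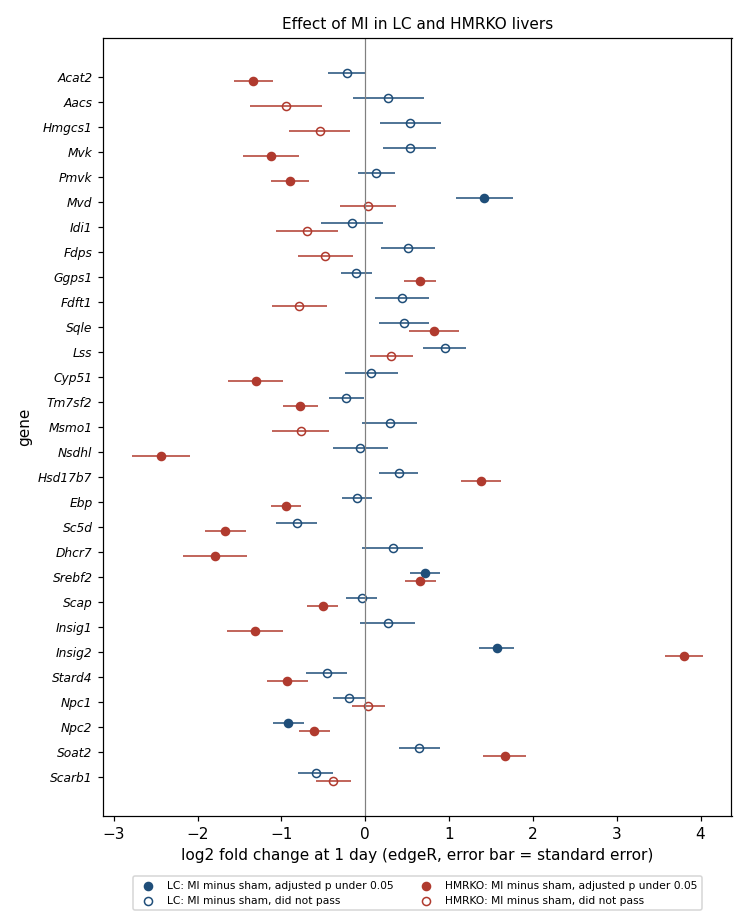
Log2 fold change of MI against sham at 1 day for each member in LC livers (blue) and in HMRKO livers (red), with the standard error as a bar and filled points for an adjusted p under 0.05. Insig2 lies at 1.57 in LC and 3.80 in HMRKO livers, and Nsdhl at −0.06 and −2.44.

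The sham groups of the 2 genotypes were compared next. Between HMRKO + sham and LC + sham livers, 0 members rose and 0 fell by edgeR (background 0.021% and 0.014%), and DESeq2 also called 0 and 0. At an unadjusted p under 0.05, 1 member was called, Sqle, at 34.8, 62.9 and 54.6 CPM in LC + sham and 28.9, 19.1 and 30.1 in HMRKO + sham livers (edgeR log2 fold change −0.96 ± 0.30 (SE), adjusted p = 0.575). All 7 mevalonate genes lay lower in HMRKO + sham livers, with log2 fold changes of −0.78 to −0.17, none of which passed.

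The difference between the 2 effects of MI was tested as an interaction of genotype and operation. Here 1 member was higher in HMRKO livers (Insig2) and 7 lower (Nsdhl, Dhcr7, Mvk, Insig1, Acat2, Pmvk and Ebp), and the median over the 29 was −0.85 on the log2 scale. The falls were 24.1% of the members, against 8.5% of all genes tested, and the rise 3.45%, against 6.74%. With a log2 fold change past 1 as well, 6 were lower (20.7%, against 6.14% of all genes) and 1 higher (3.45%, against 3.96%). MI raised Insig2 further in HMRKO livers (edgeR log2 fold change 2.23 ± 0.29 (SE), adjusted p = 0.00403). For Nsdhl and Dhcr7, MI lowered the level in HMRKO livers and did not pass in LC livers, and the interaction was −2.38 ± 0.47 (SE) and −2.12 ± 0.52 by edgeR, at adjusted p = 0.0107 and 0.0212.

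Of the marker lists, 3 of 8 hepatocyte markers were higher in this test and 0 on the other 7 lists passed. For the other 5 members, the interaction was −1.66 for Mvk, −1.58 for Insig1, −1.11 for Acat2, −1.03 for Pmvk and −0.85 for Ebp. The number of lower members depended on single livers. It was 1 without LC + sham replicate 2, 2 without LC + sham replicate 1, LC + MI replicate 1 or HMRKO + sham replicate 3, 3 without HMRKO + sham replicate 1, and 4 without replicate 3 of LC + MI or replicate 1 or 3 of HMRKO + MI. Insig2 and Nsdhl passed under all 18 other settings tried and Dhcr7 under 17, with Mvk, Acat2, Insig1, Pmvk and Ebp under 12, 11, 9, 7 and 6.

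At 12 hours the question was whether these genes differed between MI and sham in C57 livers. By edgeR over all 6 livers, 8 members rose (Insig2, Hsd17b7, Sqle, Ebp, Tm7sf2, Soat2, Lss and Aacs) and 5 fell (Hmgcs1, Scap, Ggps1, Acat2 and Sc5d). The rises were 27.6% of the members, against 34.3% of all genes tested, and the falls 17.2%, against 32%. With a log2 fold change past 1 as well, 7 were higher (24.1%, against 25.5% of all genes) and 1 lower (3.45%, against 26.7%). Both shares lay below those of all genes. Values here are CPM of the estimated counts unless TPM, which is per transcript length, is named. By TPM in C57 + sham livers, Fdps was the highest enzyme, at 707, 311 and 419, and Idi1, at 2.02, 2.94 and 3.77, and Hsd17b7, at 2.62, 3.31 and 2.36, the lowest. Idi1 averaged 4.84 CPM in these livers but 114.5 in LC + sham livers at 1 day. The identifiers and counts of the 2 files differ in kind, and their part in this gap was not tested.

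Insig2 rose from 20.03, 18.6 and 25.01 to 291, 175 and 277 CPM, 11.6-fold higher and without overlap (edgeR log2 fold change 3.54 ± 0.28 (SE), adjusted p = 5.14e-06). Hsd17b7 went from 7.07, 8.70 and 6.25 to 22.2, 75.2 and 40.03 CPM (edgeR log2 fold change 2.64 ± 0.44 (SE), adjusted p = 0.000413), and Ebp from 82.5, 97.3 and 108 to 209, 255 and 239.7 (edgeR log2 fold change 1.28 ± 0.21 (SE), adjusted p = 0.000345), with every MI liver above every sham liver. Soat2 went from 44.8, 45.1 and 74.7 to 172, 109 and 75.4 CPM, where the lowest MI value lay just above the highest sham value (edgeR log2 fold change 1.11 ± 0.32 (SE), adjusted p = 0.0104). Scap, the escort of SREBP2, was lower in all 3 MI livers, at 52.9, 46.7 and 45.1 CPM against 77.8, 89.4 and 107 in sham livers (edgeR log2 fold change −0.93 ± 0.19 (SE), adjusted p = 0.00161).

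The MI livers were not alike. Hmgcs1 stood at 412, 392 and 398 CPM in sham livers and at 36.4, 296 and 37.4 in MI livers (edgeR log2 fold change −1.70 ± 0.68 (SE), adjusted p = 0.0452), so replicates 1 and 3 were far lower and replicate 2 only a little. Insig1 was at 78.4, 93.3 and 84.1 CPM in sham and 39.6, 205 and 29.005 in MI livers, with replicates 1 and 3 below all sham livers and replicate 2 above them (edgeR log2 fold change 0.10 ± 0.59 (SE), adjusted p = 0.891). Sqle, at 10.6, 17.4 and 13.9 and 8.49, 139 and 33.02 CPM, was highest in replicate 2, while replicate 1 lay below the sham livers (edgeR log2 fold change 2.08 ± 0.80 (SE), adjusted p = 0.038). Over the 29 members, C57 + MI replicate 2 lay a median of 1.43 above the other 2 on the log2 scale, and over the 20 enzymes 1.83. The summed level of the 20 enzymes was 684 CPM in replicate 1, 2417 in replicate 2 and 982 in replicate 3, against 1422 to 1600 CPM in sham livers.

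**Figure D4:**
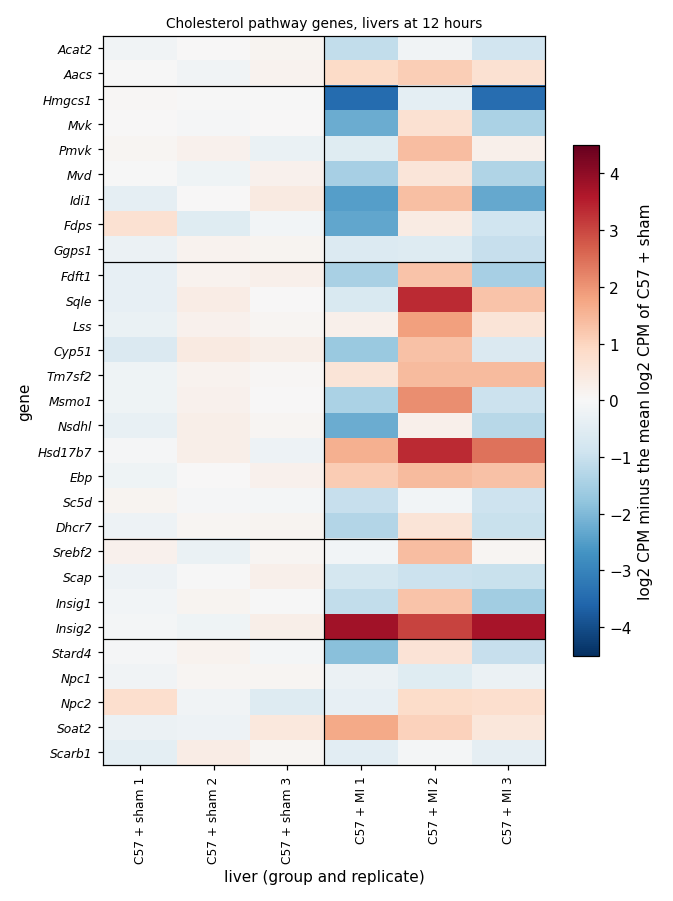
Level of each member (rows, grouped by role) in the 6 livers at 12 hours (columns), as log2 CPM minus the mean log2 CPM of the C57 + sham livers, with red for higher and blue for lower. C57 + MI replicates 1 and 3 are blue for most enzymes, replicate 2 is red for most, and Insig2 is red in all 3.

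Without C57 + MI replicate 2, 6 members rose and 16 fell, against 31.5% and 31.9% of the 10864 genes then tested. No source used here says how that liver differed. Among the 3 MI livers it also had the highest summed erythroid (838 CPM, against 219 and 481), macrophage (209, against 69.1 and 104) and neutrophil markers (69.4, against 31.7 and 38.5), and their part was not tested. Insig2 was then at a log2 fold change of 3.67, Hsd17b7 at 2.02, Ebp at 1.15 and Soat2 at 1.09, and these 4 passed with and without it. Hmgcs1 was at −3.51, Idi1 at −2.51, Mvk at −1.84, Nsdhl at −1.75 and Insig1 at −1.39, all passing as lower by edgeR. Sqle and Lss no longer passed. Leaving out any other of the 6 livers gave 6 to 10 rises and 1 or 2 falls, against 3365 to 4105 rises and 3372 to 3726 falls over all genes tested. Hmgcs1, Acat2 and Sc5d were lost in each of those fits, Ggps1 without C57 + sham replicate 2 or 3, and Sqle and Lss without any 1 of the sham livers.

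**Figure D5:**
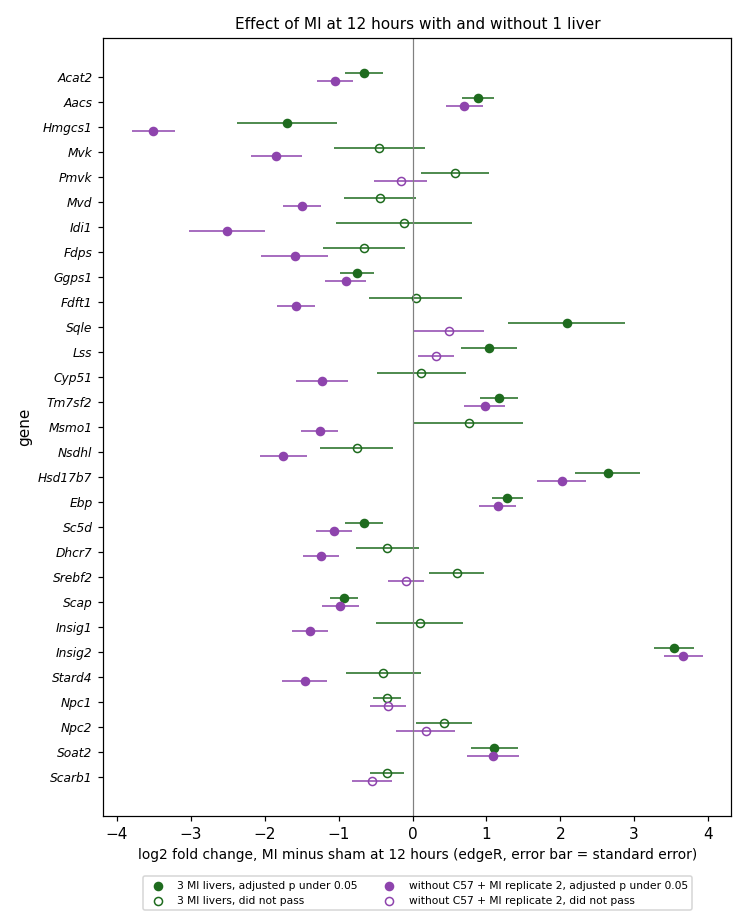
Log2 fold change of MI against sham at 12 hours for each member with all 3 MI livers (green) and without C57 + MI replicate 2 (purple), with the standard error as a bar and filled points for an adjusted p under 0.05. Most enzymes move to the left without that liver (Hmgcs1 from −1.70 to −3.51), whereas Insig2 stays at 3.54 and 3.67.

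With RLE in place of TMM factors the 12 hour counts were 8 rises and 5 falls again. A limma fit on log2(TPM + 1), which changed the unit, the scaling, the test and the filter together (11711 genes tested), gave other counts. The median log2 fold change of all genes was 0.11 by edgeR and −0.39 in that fit, and the split of genes called went from 4299 higher and 4013 lower to 2191 higher and 4974 lower. In that fit 3 members rose (10.3%, against 18.7% of all genes) and 13 fell (44.8%, against 42.5%), with a member median of −0.94 that includes the shift of all genes. Insig2, Hsd17b7 and Ebp rose under each of the 16 other settings. The summed hepatocyte markers were 37287 to 41962 CPM in sham and 94903 to 134074 CPM in MI livers (6 of 8 rose, 1 fell) and the neutrophil markers 94.2 to 113 and 31.7 to 69.4 CPM (5 of 6 rose, and Cxcr2 fell by 3.49 on the log2 scale). The stellate cell markers were at 236 to 378 and 118 to 167 CPM (0 rose and 4 of 6 fell), and the lymphocyte markers at 3.95 to 5.30 and 1.19 to 1.86 CPM (the 1 tested fell), again without overlap. Rises and falls numbered 2 and 3 of 5 for cholangiocytes, 0 and 1 of 8 for macrophages, 1 and 1 of 6 for sinusoidal endothelium and 0 and 0 of 4 for erythroid cells. The part of these markers was not tested.

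Other genes of the same biology were taken from 3 lists, whose counts stand against the shares of all genes above: 2.68% higher and 2.33% lower in LC livers after MI, 14.6% and 16.2% in HMRKO + MI against LC + MI, 22% and 21.7% in HMRKO livers after MI, and 34.3% and 32% at 12 hours. Of genes for SREBP cleavage and sterol sensing outside the members (11 of 12 tested at 1 day), 0 rose and 1 fell in LC livers after MI, 3 rose and 2 fell in HMRKO + MI against LC + MI, 3 rose and 3 fell in HMRKO livers after MI, and 8 of 12 rose and 1 fell at 12 hours. Srebf1, the gene of the fatty acid regulator SREBP1, fell in all 4 by edgeR, by 1.52, 1.03, 2.72 and 1.32 on the log2 scale in that order (adjusted p = 0.00301, 0.00437, 1.02e-05 and 0.000504). Mbtps2, a protease that releases SREBPs from the membrane, was higher in HMRKO + MI than in LC + MI livers (edgeR log2 fold change 0.61 ± 0.19 (SE), adjusted p = 0.0313), and Rdh11, a retinol dehydrogenase, was lower (edgeR log2 fold change −1.12 ± 0.28 (SE), adjusted p = 0.0105).

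Of 13 genes of the isoprenoid, dolichol and ubiquinone branches, which draw on the same mevalonate, 1 rose and 0 fell in LC livers after MI, 5 rose and 1 fell in HMRKO + MI against LC + MI, 7 rose and 2 fell in HMRKO livers after MI, and 8 rose and 2 fell at 12 hours. Rabggta, a subunit of the enzyme that attaches geranylgeranyl groups to Rab proteins, fell in the last 3 (log2 fold changes of −0.94, −1.23 and −1.85), and its partner subunit Rabggtb rose in HMRKO + MI against LC + MI (edgeR log2 fold change 0.63 ± 0.15 (SE), adjusted p = 0.00847). Of 11 genes tested of the LXR, oxysterol and sterol export list, 0 rose and 2 fell, 2 rose and 2 fell, 2 rose and 5 fell, and 3 rose and 2 fell, in the same order. Its rises in HMRKO livers after MI (18.2%) and at 12 hours (27.3%) lay below the shares of all genes. Abcg5 and Abcg8, which together pump sterols into bile, fell after MI in LC livers (log2 fold changes of −1.23 and −1.85), in HMRKO livers (−2.02 and −1.80) and at 12 hours (−2.23 and −1.63). Between sham groups of the 2 genotypes, 0 genes of the 3 lists passed by edgeR.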

How the data were processed

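For the 1 day livers the authors deposited raw read counts, with Ensembl gene identifiers. For the 12 hour livers the authors deposited estimated counts, FPKM and TPM per gene, under Entrez identifiers. FPKM was not used. The submitters' processing notes list the aligners HISAT2 2.1.0, TopHat2 and Bowtie2 2.2.3 beside DESeq2 and the build mm9. What each did, which program counted and whether strand was used is not given in the sources used here. Hence reads from overlapping, antisense or near-identical genes cannot be told apart. The labels describe flash freezing and the study's methods RNAlater. The MI livers at 1 day carry no operation in their titles, and this and the times come from the study's design text. Every column of values was mapped to a sample or group (0 were not).

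Counts were tested with edgeR 4.0.16 in R 4.3.3 (quasi-likelihood, TMM scaling, filterByExpr with a minimum count of 10 and a total of 15), with 1 coefficient per group, over 12 livers at 1 day and apart from them over 6 at 12 hours. Estimated counts were first rounded to whole numbers. P values were Benjamini-Hochberg adjusted over all genes tested, and a gene passed at an adjusted p under 0.05. The study's own rule adds a log2 fold change past 1. The test was run on simulated counts first. Replicates are separate livers by their labels. No source says whether they shared a litter or a day, and p-values cover only the spread between these livers. Per-liver values are given for up to 12 members that passed in most comparisons, and for others where a result turned on them, the latter chosen after their values were seen. Other pathway genes are named from those with the smallest p of their list. The members, lists and tests were chosen with earlier results of these data known. Alternatives were RLE factors, DESeq2 1.42.0, other filters, limma 3.58.1 on TPM, the replicate number as a block and leaving out each liver. The same replicate number paired no samples by label. The correlation of same-numbered deviations ran from −0.21 to 0.25 at 1 day and from −0.095 to 0.025 at 12 hours. The highest was that between replicate 2 of LC + sham and of LC + MI. The own number was best in 16 of 36 comparisons at 1 day and 0 of 6 at 12 hours, each a choice among 3 livers.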

Additional observations from a re-analysis of the deposited data

Results flagged for a closer look

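The effect of MI differed between HMRKO and LC livers at 1 day for 8 members by the edgeR interaction test over 3 livers a group. The difference was above 0 for Insig2 (2.23 on the log2 scale). It was below 0 for Nsdhl (−2.38), Dhcr7 (−2.12), Mvk (−1.66), Insig1 (−1.58), Acat2 (−1.11), Pmvk (−1.03) and Ebp (−0.85). Hmgcs1 moved in opposite directions in livers with intact MR. Every LC + MI liver at 1 day lay above every LC + sham liver (log2 fold change 0.53, which did not pass), and every C57 + MI liver at 12 hours lay below every C57 + sham liver (−1.70). The 12 hour fall no longer passed under 7 of 16 other settings, DESeq2 among them. The difference between the 2 times was not tested, since the line of mice, the time, the depth and the file differ together.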

How the results depend on the processing

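Over 1131 rechecks of 62 called member results, direction held in every one, 966 also kept their side of the threshold and 165 lost it. These rechecks reused the same livers on results that had already passed. Direction could not differ under the rule with a log2 fold change past 1, which kept the same fit. The members that fell in LC livers after MI went from 1 to 2 under DESeq2, under no filter beyond 1 count and with only the groups compared, and to 0 under the rule with a log2 fold change past 1. That rule left 1 rise in HMRKO + MI against LC + MI, 3 rises and 7 falls in HMRKO livers after MI, and 1 fall at 12 hours. The interaction gave 3 higher members under DESeq2, no filter or the replicate block, against 1259, 985 and 773 higher over all genes. At 12 hours, no filter left 2 falls, limma on log2(TPM + 1) gave 3 rises and 13 falls, and with a pseudocount of 0.1 it gave 3 and 12. Falls over all genes numbered 4068 of 17089 with no filter and 4973 of 11711 with that pseudocount. Thinning the MI libraries to sham depth, chosen after seeing the data, gave 7 rises and 6 falls, and 5 and 16 without C57 + MI replicate 2 as well. Over all genes the thinned fit called 3111 higher and 3323 lower of 10008 tested, and without that liver 2851 and 3185 of 10545. Leaving out each liver gave 1 to 4 rises and 0 to 2 falls in LC livers, 1 to 2 rises in HMRKO + MI against LC + MI, 1 to 2 higher and 1 to 7 lower members for the interaction, and 1 to 16 falls at 12 hours. With the replicate block, which pairs livers by number alone, the interaction gave 3 higher and 6 lower members and the 12 hour comparison 8 rises and 6 falls, and no other count of members moved by over 1.5 times. The cause of these changes was not tested. The 3 livers a group and the shallow sham libraries limit what could be detected at 12 hours.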
